A study of Homo sapiens with 8 samples.

Results

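The heterogeneous nuclear ribonucleoproteins (HNRNPs) examined here were the products of 10 genes, HNRNPK, HNRNPA1, HNRNPA2B1, HNRNPC, HNRNPD, HNRNPF, HNRNPH1, HNRNPL, HNRNPM and HNRNPU. They were chosen by symbol, as the gene of the protein that the study examined as a partner of the lincRNA SLINKY and its main relatives, out of 22674 genes with a RefSeq row. Expression was measured by RNA-seq in 8 libraries from A498 and 786-O, established cell lines derived from clear cell renal cell carcinoma (ccRCC), the commonest kidney cancer. Each line gave 2 libraries after transfection with non-targeting control (NTC) siRNA, 1 after SLINKY siRNA #1 and 1 after SLINKY siRNA #2, all with 50 nM siRNA for 16 hr. The 16 hr is the length of the transfection, and the study's methods place RNA isolation later. Nothing in the labels said whether the 2 NTC libraries of a line came from separate cultures, so the spread between them may be partly technical. All 10 genes passed the filter of a mean of at least 1 FPKM (fragment counts normalised to transcript length and to the mapped reads of the library) that left 11365 genes for testing.

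HNRNPs coat nascent RNA polymerase II transcripts and govern their splicing, export, stability and translation. They bind RNA through RNA recognition motifs (HNRNPA1, HNRNPA2B1, HNRNPC, HNRNPD, HNRNPL and HNRNPM), the related quasi-RRMs (HNRNPF and HNRNPH1), KH domains (HNRNPK) or an RGG box (HNRNPU). HNRNPK prefers C-rich sequence, and like HNRNPU it is known for binding long non-coding RNAs.

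A pair of sequences bears on the results below. The first is the stretch of coding sequence in which the longer HNRNPM transcript differs from the shorter one, shown because the HNRNPM rows taken to be these transcripts differed between the cell lines in opposite directions. In GENCODE v44 the 730-residue HNRNPM-201 reads through exon 6 of 16, while the 691-residue HNRNPM-202 removes 117 bases from inside that exon, at chr19:8530247-8530363 (GRCh37, plus strand), and so lacks 39 residues. The stretch is a whole number of codons, and it is printed in capitals with 20 flanking exon bases on either side in lower case.
HNRNPM alternative coding stretch: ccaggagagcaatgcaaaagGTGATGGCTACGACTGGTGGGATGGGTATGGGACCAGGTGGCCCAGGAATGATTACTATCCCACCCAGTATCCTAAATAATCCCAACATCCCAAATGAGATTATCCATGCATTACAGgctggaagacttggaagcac

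The second sequence is the upstream of the 2 HNRNPK promoter windows in the RefSeq table of GRCh38.p14, shown because HNRNPK is the gene the set was built around. It covers chr9:83980566-83980865 on the minus strand, from 250 bases before to 50 after the gene start. The capitals mark TCGCGA, the core of a longer palindrome known from the HNRNPK promoter, and it begins 55 bases before the gene start. The core was present in 1097 of 35116 promoter windows of the same length (3.12%; it reads the same on both strands) and in 1 of the 15 windows found for 9 of the 10 genes. HNRNPA1 had no entry.
HNRNPK promoter: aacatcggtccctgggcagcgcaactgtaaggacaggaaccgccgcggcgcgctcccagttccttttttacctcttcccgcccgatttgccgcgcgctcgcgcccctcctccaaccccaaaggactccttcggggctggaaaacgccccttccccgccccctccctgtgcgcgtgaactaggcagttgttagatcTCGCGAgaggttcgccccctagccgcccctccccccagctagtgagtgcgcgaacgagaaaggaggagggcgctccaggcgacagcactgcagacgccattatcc
The CCAAT box was found on either strand in 9 of the 15 windows (7 of the 9 genes) and in 34.6% of all windows. The GC box GGGCGG was found in 9 of the 15 windows (7 of the 9 genes) and in 45% of all windows. TATAAA was present in 2 of the 15 windows, those of HNRNPC and HNRNPD, and in 11.5% of all windows. The windows of the HNRNP genes had a median GC content of 66% against 58.7% over all windows.

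The libraries held 25.1 to 64.7 M mapped reads as recovered from the deposited intervals, and the scaling factors that would equalise the median gene lay between 0.977 and 1.016. SLINKY, at chr7:106415457-106436010 (hg19), was 14.6 and 16.1 FPKM in the A498 NTC libraries, 1.64 with siRNA #1 and 3.01 with siRNA #2. In 786-O it was 1.45 and 1.39 FPKM with NTC, 0.0569 with siRNA #1 and 0.594 with siRNA #2. Every SLINKY siRNA library thus lay below both NTC libraries of its line, with reductions of 58.2% to 96.0%. The 786-O values rest on few reads, about 11 and 17.9 with NTC and 5.7 with siRNA #2 by the deposited intervals, and the interval of the siRNA #1 library gave no usable number. Of 9 kidney and ccRCC markers, 8 were at 1 FPKM or more in every library (PAX8, a renal lineage factor, at 39.2 to 48.1 FPKM), while CA9 stayed below 1. Of 9 markers of other cell types 7 were below 1 FPKM throughout and PTPRC, the pan-leukocyte marker, was at 0. Their summed level was 141 to 154 FPKM in A498 and 1.96 to 5.42 in 786-O, nearly all from CD68, a lysosomal gene used as a macrophage marker. The remaining marker, COL1A1, was 2.87 to 3.42 FPKM in A498 and 0.186 to 0.273 in 786-O.

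All 10 genes were abundant. Their means over the 8 libraries placed them between percentiles 87.1 and 97.5 of the tested genes on the FPKM scale, which is per length and allows genes to be compared. HNRNPA2B1, a reader of RNA methylation marks and a splicing factor, was the highest in both lines at 318 ± 15.2 FPKM in A498 and 342 ± 28.9 in 786-O (SD, n = 4 libraries of mixed treatment). HNRNPM followed in both lines, and HNRNPU, the nuclear scaffold attachment factor, was lowest in both at 60.1 ± 2.50 and 72.3 ± 2.16 FPKM. In A498 the genes from HNRNPK at rank 3 to HNRNPF at rank 8 lay between 118 and 98.2 FPKM, and the library ranges of each pair of neighbours overlapped. In 786-O the range of HNRNPK, at rank 7 with 130 ± 4.37 FPKM, overlapped those of its neighbours HNRNPL and HNRNPF. HNRNPA1 was at rank 9 in both lines, and it stood clear of HNRNPF above it in A498 only. These ranks rest on each gene's own rows. With the overlapping rows described further on added, the sum for HNRNPU was 142 ± 18.3 FPKM in A498 and 191 ± 20.1 in 786-O. That for HNRNPA1 was 88.6 ± 2.16 and 182 ± 7.26 (SD, n = 4). FPKM is per length, so where rows cover parts of the same molecules their sum can count a molecule again. The sum for HNRNPU is therefore not a level of that gene and gives it no rank.

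**Figure D1:**
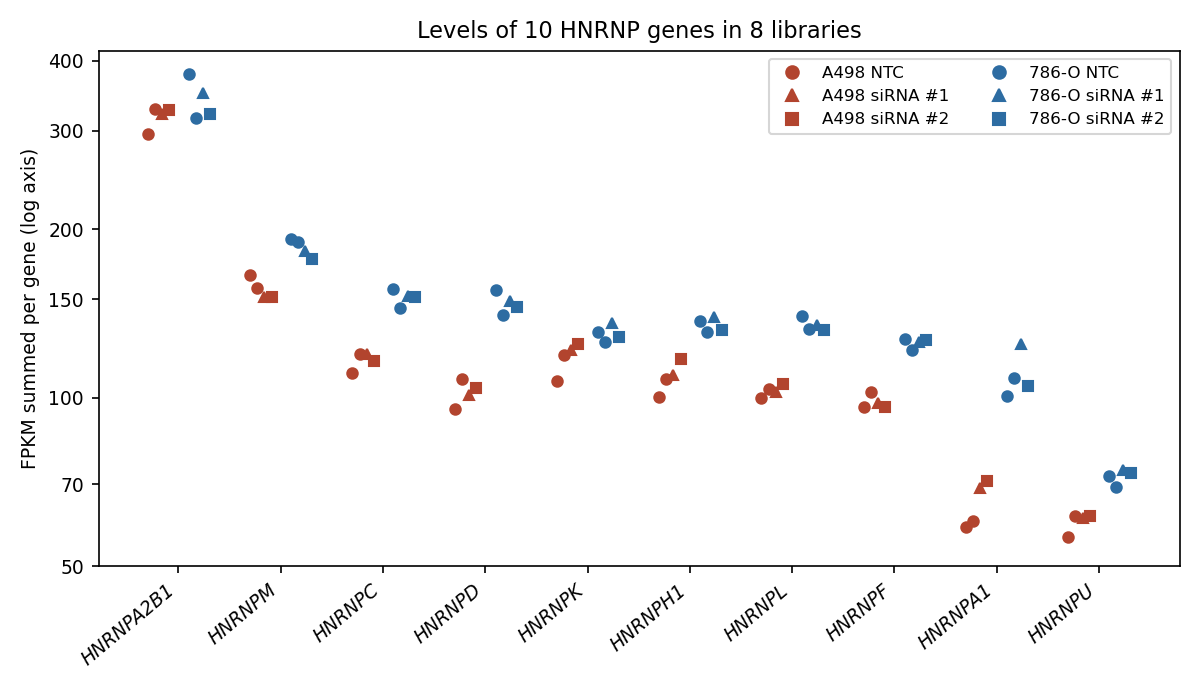
Gene level of the 10 HNRNP genes in each of the 8 libraries, as FPKM summed over the transcript rows of a gene on a log axis; colours mark the cell line and symbols the siRNA. The 4 A498 points lie below the 4 786-O points for 9 genes, and the points overlap for HNRNPA2B1.

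The comparison of A498 with 786-O asked how far the cell lines in which SLINKY was knocked down differ in these genes. All 10 genes had a lower estimate in A498, and 9 passed limma's test at an adjusted p below 0.05, with a median log2 fold change over the 10 of -0.33 against -0.02 over all tested genes. In the background 81% of the 11365 tested genes passed in either direction, 41.7% were lower and 39.3% higher in A498, and 51.3% were lower among the 1863 genes with a mean of at least 50 FPKM. The A498 libraries all lay below the 786-O libraries for 9 of the 10 genes, against 38.9% of all tested genes and 48% of those with at least 50 FPKM. A498 and 786-O are 1 line each, so a difference between them describes these lines. In bulk RNA a lower level in all cells and a lower share of cells with the transcript cannot be told apart.

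HNRNPK, on chr9:86582998-86595569 (hg19), showed the smallest of the 9 differences. It was 107 and 119 FPKM in the A498 NTC libraries, 122 with siRNA #1 and 125 with siRNA #2. The 786-O libraries held 131 and 126 FPKM with NTC, 136 with siRNA #1 and 128 with siRNA #2. The highest A498 library therefore lay just below the lowest 786-O library, and the first A498 NTC library was the lowest of the 8. The level in A498 was 0.906 times that in 786-O (log2 fold change -0.14, SE 0.05, limma adjusted p = 0.0277). This call was lost in 7 of 20 alternative fits, namely with NTC libraries alone (-0.19, adjusted p = 0.0853), with knockdown libraries alone (-0.10, adjusted p = 0.153), with the highest row in place of the sum (-0.16, adjusted p = 0.131) and in 4 fits without a single library. Those were the siRNA #1 library of either line (adjusted p = 0.0879 without that of A498 and 0.0876 without that of 786-O) and each 786-O NTC library (0.0732 and 0.0586).

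HNRNPA1, a splicing repressor that also shuttles mRNA to the cytoplasm (chr12:54674488-54679030), differed most. Its level was 58.8 and 60.2 FPKM in the A498 NTC libraries, 69.0 with siRNA #1 and 70.9 with siRNA #2. The 786-O values were 101 and 109 FPKM with NTC, 124 with siRNA #1 and 105 with siRNA #2. The groups did not overlap, and A498 stood at 0.590 times the 786-O level (log2 fold change -0.76, SE 0.06, limma adjusted p = 2.05e-05). HNRNPA1 has many processed pseudogenes, and how reads that map to several places were assigned is not given in the sources used here, so its level is uncertain.

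A separate RefSeq row, named for the pseudogene HNRNPA1P10, lies at chr12:54674533-54678663 in these files, within HNRNPA1 and covering most of its span. Whether the reads given to this row came from HNRNPA1 itself was not tested. The HNRNPA1P10 row was 29.1 and 27.9 FPKM in the A498 NTC libraries, 22.6 with siRNA #1 and 15.8 with siRNA #2. The row held 83.7 and 63.3 FPKM in 786-O with NTC, 64.5 with siRNA #1 and 77.9 with siRNA #2. In A498 this row was thus lower where HNRNPA1 was higher, and the sum of both was 86.7 to 91.7 FPKM in A498 and 172 to 189 in 786-O. On that sum the log2 fold change between the lines was -1.04 (limma adjusted p = 4.39e-07).

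HNRNPD, also known as AUF1, which binds AU-rich elements and speeds mRNA decay (chr4:83274467-83295149), had the second-largest difference. It was 95.4 and 108 FPKM in A498 with NTC, 101 with siRNA #1 and 104 with siRNA #2. Levels in 786-O were 156 and 140 FPKM with NTC, 149 with siRNA #1 and 145 with siRNA #2. The lowest 786-O library stood well above the highest A498 library, for a ratio of 0.692 (log2 fold change -0.53, SE 0.05, limma adjusted p = 9.72e-05).

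The splicing regulators HNRNPL, HNRNPC, HNRNPF and HNRNPH1 differed by similar amounts. HNRNPL, which binds CA repeats (chr19:39327028-39342979), ranged from 99.9 to 106 FPKM in A498 and from 132 to 140 in 786-O (log2 fold change -0.39, limma adjusted p = 5.03e-05). HNRNPC, which binds U-rich tracts and packages introns (chr14:21677296-21737638), ranged from 111 to 120 FPKM in A498 and from 144 to 157 in 786-O (log2 fold change -0.37, limma adjusted p = 0.000156). The G-tract binders HNRNPF (chr10:43881065-43904696) and HNRNPH1 (chr5:179041179-179050722) are close paralogs.
HNRNPF ranged from 96.1 to 102 FPKM in A498 and from 122 to 127 in 786-O (log2 fold change -0.35, limma adjusted p = 8.28e-05). HNRNPH1 ranged from 100 to 117 FPKM in A498 and from 131 to 139 in 786-O (log2 fold change -0.31, limma adjusted p = 0.000747). For all 4 genes the ranges of the lines were separate.

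HNRNPM and HNRNPU showed smaller differences that also passed the test. HNRNPM (chr19:8509803-8554002), a splicing regulator that binds GU-rich sequence, ranged from 151 to 166 FPKM in A498 and from 177 to 192 in 786-O (log2 fold change -0.25, limma adjusted p = 0.000250). HNRNPU (chr1:245013602-245027827) was 56.3 and 61.6 FPKM in A498 with NTC, 61.0 with siRNA #1 and 61.4 with siRNA #2, against 69.3 to 74.4 in 786-O (log2 fold change -0.27, limma adjusted p = 0.000584). HNRNPA2B1 (chr7:26229556-26240413) was 296 and 328 FPKM in A498 with NTC, 322 with siRNA #1 and 327 with siRNA #2. Among 786-O libraries it was 379 and 316 FPKM with NTC, 350 with siRNA #1 and 322 with siRNA #2. Its ranges overlapped and its difference missed the threshold (log2 fold change -0.10, 95% confidence interval -0.27 to 0.07, limma adjusted p = 0.225).

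**Figure D2:**
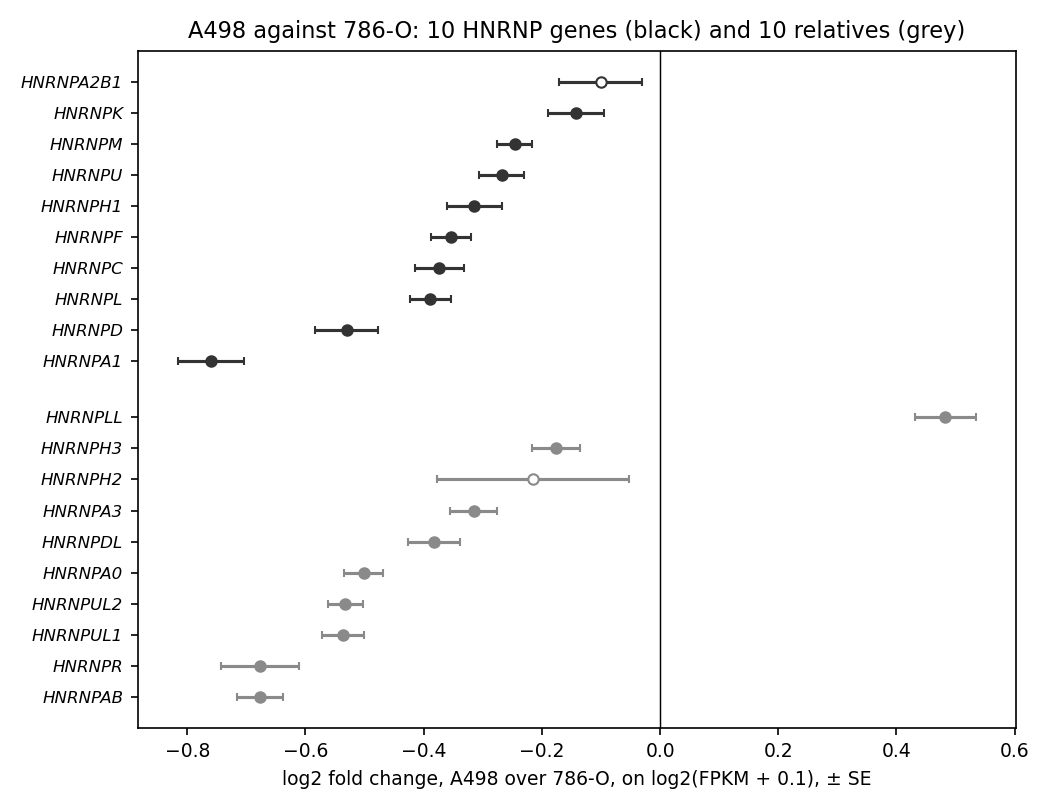
log2 fold change of A498 over 786-O on the log2(FPKM + 0.1) scale with its SE, from limma, for the 10 HNRNP genes (black) and 10 further HNRNP genes (grey); open symbols missed an adjusted p of 0.05. All black points lie left of 0, from -0.10 for HNRNPA2B1 to -0.76 for HNRNPA1, and HNRNPLL is the one grey point to the right.

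A second overlapping row concerned HNRNPU. The GENCODE row HNRNPU-AS1, at chr1:245003940-245018799, overlaps the 3′ end of HNRNPU, and in GENCODE v44 on the same build the HNRNPU gene itself spans that interval, at chr1:245003940-245027862 on the minus strand. Reads carried no strand, so reads of both rows cannot be told apart where they overlap. The row was 60.1 and 82.5 FPKM in A498 with NTC, 87.9 with siRNA #1 and 97.7 with siRNA #2, against 127, 101, 140 and 105 FPKM in the same order in 786-O. It was thus as high as HNRNPU or higher in all 8 libraries, and it was lowest in the first A498 NTC library. With the row added to HNRNPU, the log2 fold change of the sum between the lines was -0.43. FPKM is per length, and the row may stem from HNRNPU itself or from another transcript. The sum is therefore not a level of HNRNPU.

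**Figure D3:**
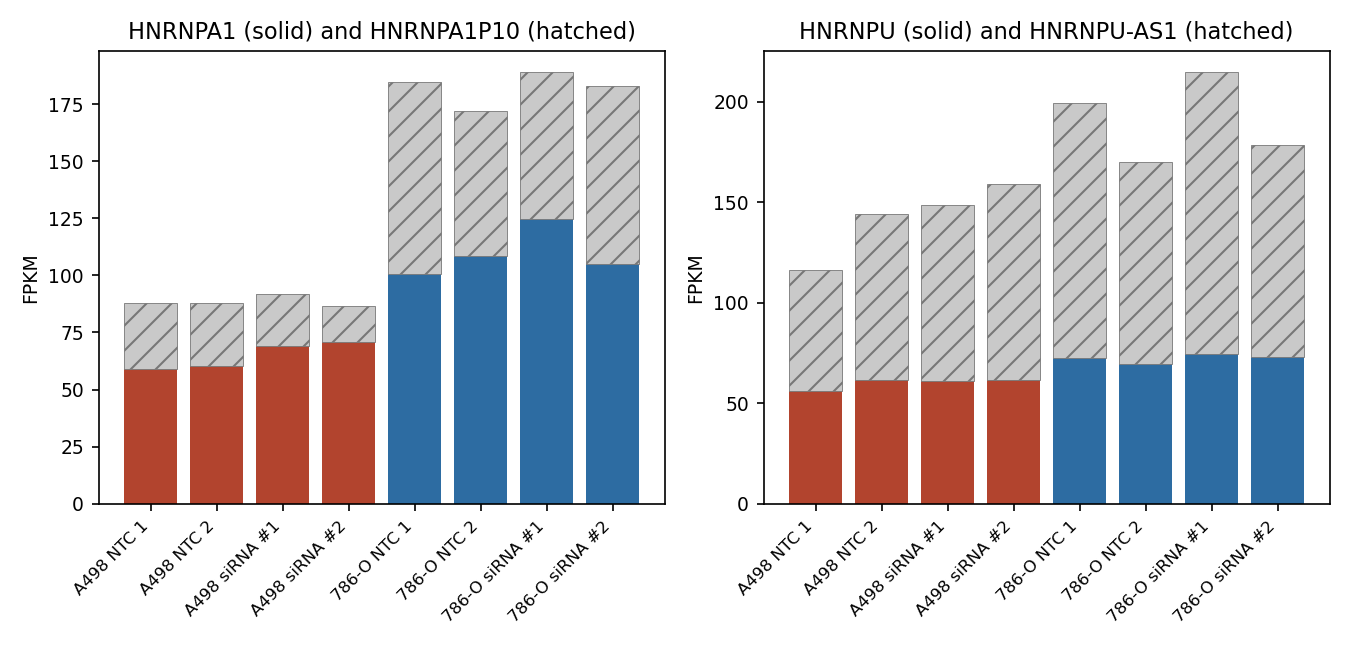
FPKM in each library of HNRNPA1 and HNRNPU (solid; red A498, blue 786-O) with the rows that overlap them, HNRNPA1P10 and HNRNPU-AS1 (hatched), stacked on top. The summed height for HNRNPA1 lies between 86.7 and 91.7 FPKM in A498 and between 172 and 189 in 786-O.

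The 10 genes were represented by 29 RefSeq transcript rows, and 24 of them averaged 1 FPKM or more. Of these, 8 passed limma's test between the lines, 7 lower and 1 higher in A498, where 65.1% of 14837 tested rows passed in either direction. The row that was higher in A498 was an HNRNPM row, NM_031203, taken here as the transcript for the shorter protein. No table used here pairs the RefSeq rows with the GENCODE models. It was 93.1 and 74.8 FPKM in A498 with NTC, 73.1 with siRNA #1 and 84.5 with siRNA #2. It was 66.7 and 61.5 FPKM in 786-O with NTC, 52.0 with siRNA #1 and 53.5 with siRNA #2. Every A498 library was above every 786-O library (log2 fold change 0.48, limma adjusted p = 0.00495), and with the NTC libraries alone the value was 0.38 (adjusted p = 0.0912).

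The other HNRNPM row, NM_005968, was taken as the transcript with the stretch printed above, and it went the opposite way. It was 72.9 and 81.9 FPKM in A498 with NTC, 78.4 with siRNA #1 and 66.8 with siRNA #2. In 786-O it was 125 and 128 FPKM with NTC, 131 with siRNA #1 and 124 with siRNA #2 (log2 fold change -0.76, limma adjusted p = 8.13e-05). NM_005968 made up 43.9% to 52.3% of HNRNPM in A498 and 65.3% to 71.5% in 786-O, a difference of -20.5 percentage points between means of 48.0% ± 4.62 and 68.6% ± 2.72 (SD, n = 4). An exact two-sided permutation test over the libraries gave p = 0.0286, the smallest that 4 against 4 allows, and an adjusted p of 0.229 over the 8 genes with at least 2 tested rows. With 1 gene at that floor among 8, no lower adjusted p was possible, so the adjusted value cannot decide. Of 2717 genes with at least 2 tested rows, 5.59% had 1 row higher and 1 row lower in A498. Cufflinks divided the reads between such rows by a model. Within the coding sequence, only reads inside the stretch of 117 bases or across its ends tell the 2 GENCODE transcripts apart. Their untranslated parts were not compared.

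**Figure D4:**
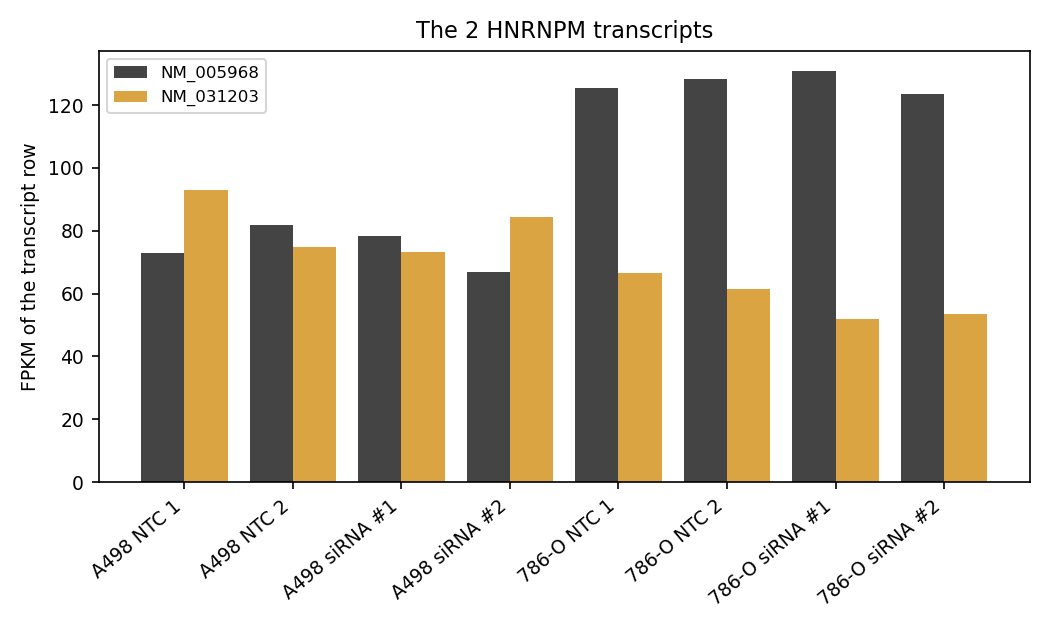
FPKM of the 2 HNRNPM transcript rows in each library, with bars for single libraries and no error. NM_005968 is at 66.8 to 81.9 FPKM in A498 and at 124 to 131 in 786-O, while NM_031203 is at 73.1 to 93.1 in A498 and 52.0 to 66.7 in 786-O.

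In the other genes no row passed in the direction opposite to its gene. Both HNRNPA1 rows were lower in A498, NM_002136 with a log2 fold change of -0.60 (limma adjusted p = 0.00560; -0.49 and 0.0725 with the knockdown libraries alone) and NM_031157, which includes an extra coding exon, with -1.10 (limma adjusted p = 0.000287). For HNRNPA2B1 neither row passed. The row of the longer B1 protein, NM_031243, made 38.5 ± 10.7 FPKM in A498 and 29.5 ± 3.27 in 786-O. The A2 row NM_002137 made 280 ± 16.1 and 312 ± 30.1 (SD, n = 4). The split between these rows was unresolved in the second A498 NTC library. There the B1 row was 53.9 FPKM with bounds of 0 to 357, and the A2 row was 275 with bounds of 0 to 581. HNRNPK was carried by NM_031263, at 57.2% to 65.3% of the gene over the 8 libraries, and by NM_002140. The remaining HNRNPK row, NM_031262, was at or near 0 in every library, and neither expressed row passed alone.
None of the 4 HNRNPD rows or the 6 HNRNPF rows passed. NM_004966 of HNRNPF was 46.2, 28.1, 0.411 and 35.0 FPKM in the 4 A498 libraries, although the HNRNPF sum stayed between 96.1 and 102. Cufflinks marked the HNRNPF rows as failed in 6 of the 8 libraries, so the sums of this gene rest largely on rows with that mark.

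Further HNRNP genes were described from lists of relatives, whose counts stand beside the 41.7% of tested genes that were lower and the 39.3% that were higher in A498. Of the 10 other genes named HNRNP, 8 were lower and 1 higher in A498, with a median log2 fold change of -0.44. HNRNPAB, an AU-rich element binder like HNRNPD, was 148 ± 6.05 FPKM in A498 and 237 ± 9.35 in 786-O (SD, n = 4; log2 fold change -0.68). HNRNPR, at 59.9 ± 3.33 and 95.9 ± 6.66 FPKM, had a log2 fold change of -0.68 as well. The HNRNPU-like genes HNRNPUL1 and HNRNPUL2 had log2 fold changes of -0.54 and -0.53. HNRNPLL, the HNRNPL-like factor known from T-cell CD45 splicing, was the one that was higher, at 3.01 ± 0.211 FPKM in A498 and 2.12 ± 0.162 in 786-O (log2 fold change 0.48).

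Of 18 HNRNPs with other names and related RNA-binding proteins, 14 were lower and 3 higher in A498, with a median log2 fold change of -0.52. CIRBP, a cold-inducible RNA binder, was 28.8 ± 1.21 FPKM in A498 and 66.8 ± 3.43 in 786-O (log2 fold change -1.21), and ELAVL1, the mRNA stabiliser HuR, was 15.0 ± 0.568 and 25.9 ± 0.426 (-0.78). RALY, a relative of HNRNPC, had a log2 fold change of -0.72. PCBP3, which has KH domains like HNRNPK, was 3.39 ± 0.162 FPKM in A498 and was listed at 0 in all 4 libraries of 786-O. Among 20 tested KH domain genes, some of which are also HNRNPs, 13 were lower and 5 higher. The IGF2 mRNA-binding proteins moved apart, IGF2BP2 from 2.66 ± 0.0954 FPKM in A498 to 11.4 ± 0.538 in 786-O (log2 fold change -2.06) and IGF2BP3 from 15.5 ± 1.41 to 5.76 ± 0.445 (1.41).
The RNA-binding regulator MEX3D was also lower in A498, with a log2 fold change of -0.92. Of 10 genes for enzymes and importins that act on HNRNPs, 7 were lower and 2 higher. The nuclear import receptors of HNRNPA1 differed in opposite directions, with TNPO1 at 14.3 ± 0.941 FPKM in A498 and 7.98 ± 0.633 in 786-O (log2 fold change 0.84) and TNPO2 at 12.3 ± 0.225 and 23.2 ± 0.801 (-0.91). CARM1, an arginine methyltransferase, had a log2 fold change of -0.75, and MKNK2, a kinase that phosphorylates HNRNPA1, of 0.54. All of these passed limma's test.

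The siRNA comparisons asked whether the HNRNP transcripts changed when SLINKY was reduced. None of the 10 genes passed limma's test for siRNA #1, for siRNA #2, for both pooled, for the difference between the siRNAs or for the difference in knockdown effect between the lines. In the background, 0.0704% of 11365 genes passed for siRNA #1, 0.0352% for siRNA #2, 0.0352% for both pooled, 0.0528% between the siRNAs and 0.141% for the interaction with the cell line. At an unadjusted p below 0.05 the counts among the 10 genes were 1, 1, 2, 0 and 0, against 10.1%, 12.6%, 12.5%, 8.83% and 1.93% of all tested genes in the same order. For siRNA #1 the 95% confidence intervals of all 10 genes lay within -0.18 and 0.40 on the log2 scale, and for siRNA #2 within -0.23 and 0.30. No HNRNP transcript row passed for siRNA #1, siRNA #2, both pooled, the difference between the siRNAs or the interaction, where 0.00674%, 0.027%, 0.027%, 0.0202% and 0.0741% of rows did.

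HNRNPK was 1.07 times its NTC level with siRNA #1 (log2 fold change 0.10, 95% confidence interval -0.04 to 0.24, limma adjusted p = 0.595) and 1.05 times with siRNA #2 (0.07, -0.07 to 0.21, adjusted p = 0.615). By line, both siRNA libraries of A498 were above both NTC libraries, by 1.08 and 1.10 times the NTC mean. In 786-O siRNA #1 was at 1.06 and siRNA #2 at 0.999 times the NTC mean, and the NTC libraries alone differed by 1.11 times in A498. With a library left out the log2 fold change was 0.058 (without the first A498 NTC library) to 0.12 for siRNA #1. For siRNA #2 it was 0.0033 without the A498 siRNA #2 library, 0.031 without the first A498 NTC library and 0.14 without the 786-O siRNA #2 library. The first A498 NTC library was the lowest of the A498 libraries for 8 of the 10 genes, and for 40.3% of all tested genes.

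On their own rows HNRNPA1 had the largest estimates of the 10 genes, 1.18 times NTC with siRNA #1 (log2 fold change 0.23, unadjusted p = 0.0138, limma adjusted p = 0.386) and 1.09 times with siRNA #2 (0.13, adjusted p = 0.471). The siRNA libraries stood above both NTC libraries in A498, whereas in 786-O siRNA #2 lay between them. With the HNRNPA1P10 row added, the log2 fold change was 0.07 for siRNA #1 and 0.0080 for siRNA #2, so the estimate was no longer the largest. HNRNPM was the one gene below both NTC libraries of its line in all 4 siRNA libraries, at 0.928 to 0.957 times the NTC mean. Its log2 fold change was -0.08 with siRNA #1 (limma adjusted p = 0.537) and -0.10 with siRNA #2 (adjusted p = 0.364), and it reached an unadjusted p of 0.0238 with both pooled.

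HNRNPU and HNRNPH1 had log2 fold changes of 0.06 each with siRNA #1 and of 0.06 and 0.08 with siRNA #2, and the remaining 5 genes stayed between -0.02 and 0.03. The sum of HNRNPU and the HNRNPU-AS1 row, which is not a level of HNRNPU, had 0.21 with siRNA #1 (limma adjusted p = 0.591) and 0.13 with siRNA #2 (adjusted p = 0.670). None of the 10 genes differed by over 0.32 on the log2 scale from the NTC mean of its line in any of the 4 siRNA libraries. In the background 5.57% of tested genes did so for siRNA #1 and 7.4% for siRNA #2 in A498, and 7.53% and 5.77% in 786-O. Between the NTC libraries themselves it was 6.31% in A498 and 6.12% in 786-O. Among the relatives, no gene of the 4 lists passed for either siRNA.

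**Figure D5:**
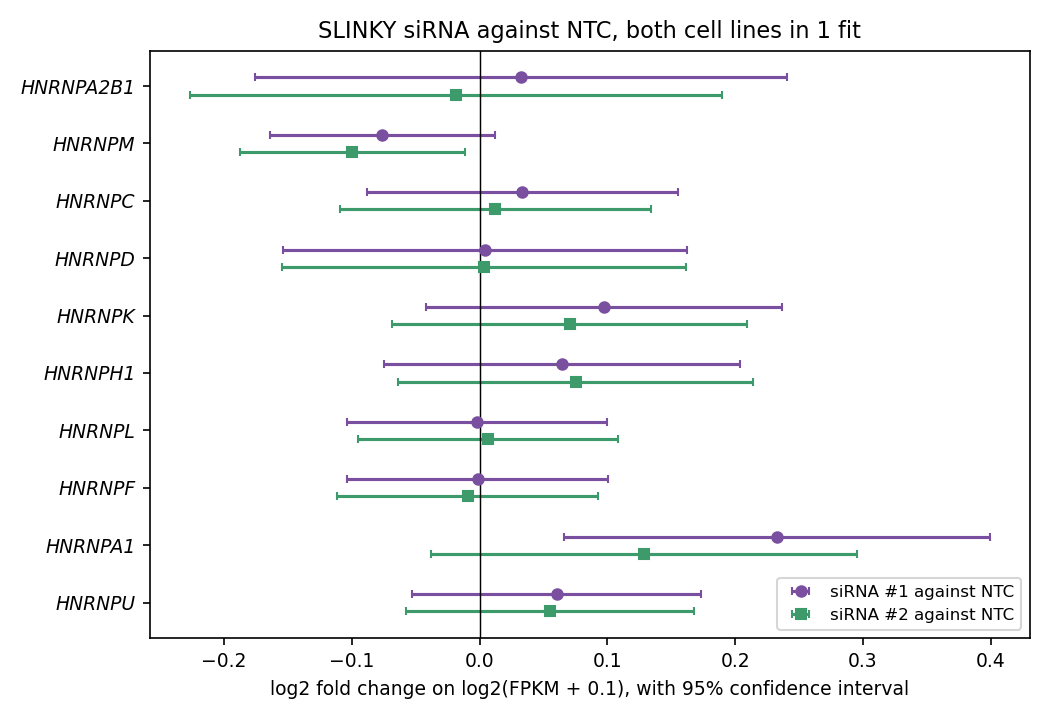
log2 fold change of SLINKY siRNA against NTC on the log2(FPKM + 0.1) scale with 95% confidence intervals from limma, for siRNA #1 (purple circles) and siRNA #2 (green squares), with 4 libraries of both lines as NTC and 2 per siRNA. Estimates lie between -0.10 and 0.23, and no gene passed the adjusted threshold.

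The genes most like HNRNPK over the 8 libraries, by Pearson's r of log2(FPKM + 0.1) among 10971 genes spanning at least 200 bp, were PTER, C1orf52, ZNF800, SLC25A40 and WDR36, with r of 0.985, 0.985, 0.984, 0.983 and 0.982. The first A498 NTC library was the lowest of the 8 for each of these 5, and the A498 libraries lay below the 786-O libraries for all but SLC25A40. After removal of the line means r was 0.966 to 0.986. These genes were picked by their r over the same libraries, so this is no independent sign of a link. All 5 were low, with means from 2.29 to 10.4 FPKM per line. Among the other 9 HNRNP genes HNRNPH1 was the closest, with r of 0.915 and rank 195, and HNRNPM the farthest, with r of 0.495 and rank 4749. Within the lines r was 0.939 for HNRNPH1 and -0.71 for HNRNPM, over the same 8 libraries.

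HNRNPK also hosts MIR7-1, one of the genes of the growth-inhibiting microRNA miR-7, in an intron. Its mature arms are shown from RefSeq (GRCh38.p14) with the seed, bases 2 to 8, in capitals, because the row is counted beside its host.
hsa-miR-7-5p: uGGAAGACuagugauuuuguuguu
hsa-miR-7-1-3p: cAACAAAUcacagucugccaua
The row of the MIR7-1 hairpin at chr9:86584663-86584772 (hg19) was 11 and 0 FPKM in A498 with NTC, 16.5 with siRNA #1 and 0 with siRNA #2. For 786-O the values were 8.03 and 9.01 FPKM with NTC, 0 with siRNA #1 and 6.20 with siRNA #2. The deposited intervals match 0 to 2 reads in a library, so no difference was detectable at this depth, and these libraries do not measure the mature microRNA.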

How the data were processed

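RNA-seq libraries (Illumina TruSeq, single-end, 36 bases, no strand information) were aligned by the authors to hg19 with TopHat2 2.0.0 and quantified with Cufflinks 2.0.2, as the submitters' processing notes and the study's methods state. The deposited values are FPKM per RefSeq transcript or lncRNA row, with 95% bounds and a status. Each file held 75378 rows; 96.6% of the 43150 RefSeq rows matched a current symbol, and FPKM was summed per symbol. Printed locus starts were raised by 1, which matched annotated starts. Genes (11365) and transcript rows (14837) with a mean of at least 1 FPKM were tested on log2(FPKM + 0.1) with limma 3.58.1 in R 4.3.3 (empirical Bayes with trend, Benjamini-Hochberg adjustment over all genes or rows), in 1 fit with terms for cell line, siRNA #1 and siRNA #2, and in a second fit with a knockdown by line term. Fold changes on this scale understate those of low genes. The fits were tested on simulated data. Shares were compared by exact permutation test. Depth (25.1 to 64.7 M mapped reads) was recovered from the intervals, which cover counting and assignment error only.

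Named were the 10 genes, SLINKY, in each list of relatives the genes past the threshold between the lines with the largest change (at most 4), and the 5 genes most correlated with HNRNPK. HNRNPLL and the rows HNRNPA1P10, HNRNPU-AS1 and MIR7-1 were added after their values were seen, as was the test of shares. The genes and lists were chosen with earlier results of these data known. Alternatives covered the pseudocount, filter, scaling, row choice, subsets, left-out libraries and the replicate block. NTC replicates 1 and 2 and siRNAs #1 and #2 share a number, and the labels do not say whether libraries of the same number were handled together. Their deviations correlated at -0.0048 in A498 and 0.0064 in 786-O, and at 0.17 and 0.023 without genes spanning under 200 bp. These values do not settle whether a batch was shared.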

Additional observations from a re-analysis of the deposited data

Results flagged for a closer look

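HNRNPU in A498 was 56.3 FPKM in the first NTC library, far from the other 3 libraries at 61.0 to 61.6, with a gap of 0.892 of the whole range, above Dixon's critical value for 4 values. It was the only 1 of 20 sets of 4 libraries past that value, and chance gives about 1 in 20. The sets share libraries, so they are not independent. In recovering depth, the bases taken off gene length came to 235.38 for the first A498 NTC library and 202.38 for each other library. Whether this bears on the low value was not tested. The HNRNPU-AS1 row was also lowest in the first A498 NTC library.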

How the results depend on the processing

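Of the 10 genes, 6 to 9 remained lower in A498 under the 20 alternatives, and the 6 came from the highest row per symbol, where HNRNPK, HNRNPD (adjusted p = 0.0633) and HNRNPF (adjusted p = 0.148) were lost. None was called for either siRNA, for both pooled, between the siRNAs or by line under any alternative run, and the same held for their transcript rows. Between the lines 6 to 9 of their transcript rows were called. On the log2 scale HNRNPA1 with siRNA #2 ran from -0.0013 to 0.26 and HNRNPH1 from -0.018 to 0.17 with a library left out, HNRNPK with siRNA #2 from 0.0033 to 0.14, and HNRNPM with siRNA #1 was 0.033 with the highest row. For the 5 genes not given singly, 55 of 280 siRNA estimates changed sign.

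Counts over all genes moved more. For siRNA #1 (8 genes) the count was 3 with the highest row per symbol, 5 with a pseudocount of 1, 52 without genes under 200 bp, 3 with the replicate block, and 2 to 34 with a library left out. For siRNA #2 (4 genes) it was 2 with no filter or a pseudocount of 1 and 3 to 29 with a library left out. For both pooled (4 genes) it was 20 in 786-O alone, 23 in A498 alone, 8 without short genes and 4 to 21 with a library left out. Between the siRNAs (6 genes) it was 3 with the highest row, 49 without short genes and 3 to 32 with a library left out. By line (16 genes) it was 5 with a mean of at least 5 FPKM, 27 with no filter, 7 with a pseudocount of 0.01, 10 with the replicate block, 1 without short genes and 24 to 38 with a library left out. Transcript rows called between the lines were 9661 and, with a mean of at least 5 FPKM, 6281 of fewer rows tested. Genes past the 0.32 log2 change with a pseudocount of 1 were 415 (siRNA #1) and 533 (siRNA #2) in A498 and 520 and 417 in 786-O, and for siRNA #2 in A498 731 to 1376 with a control left out. The causes were not tested. The replicate block left the count of HNRNP genes called unchanged in every comparison, while HNRNP transcript rows called between the lines went from 8 to 9.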
